A study of Mus musculus with 8 samples.

Results

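The anaphase-promoting complex, its 2 co-activators, separase and securin were followed in mature mouse eggs with and without Esrp1. The genes were chosen as a list of 10 names: the co-activators Cdc20 and Fzr1, the complex subunits Anapc1, Anapc4, Anapc10, Cdc16, Cdc23 and Cdc27, the protease gene Espl1 and its inhibitor Pttg1. All 10 were found by symbol among the 24860 genes listed in each of the 8 libraries. The libraries came from oocytes at the metaphase stop of meiosis II (MII), taken from C57BL/6 females at 6 weeks of age (postnatal day 42). Of the libraries, 4 were wild type (WT) and 4 carried the genotype Esrp1-/- (called Esrp1-KO in the titles). No drug or other agent is named for either group, and how the knockout allele was built is not given in the sources used here. A tube of 15 oocytes gave 1 library. Whether a tube held eggs of a single animal is not given either, so the p-values reflect only variation from tube to tube, which may be technical.

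The anaphase-promoting complex is a ubiquitin ligase that marks cell cycle proteins for destruction by the proteasome. A co-activator, Cdc20 or Fzr1 (also called Cdh1), brings it its substrates. The main ones at anaphase are cyclin B and securin. Once securin is gone, separase cuts cohesin and the chromosomes part. In oocytes this happens in the first division, then stops at MII, where the complex is held inactive by its inhibitor Emi2 until fertilization. Fzr1 is known for keeping oocytes in prophase arrest, and Cdc20 for driving anaphase. RNA levels do not report the activity of the complex, which is set largely by phosphorylation and by bound inhibitors.

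The comparison asks which of these transcripts differ between eggs of the genotypes. Values are FPKM (fragments scaled for gene length and for the size of the library), as deposited, and are shares of each library's RNA. Fewer cells of a type and less RNA per cell cannot be told apart on this scale. The read totals worked out from the values were 25018182 to 28932109 in WT and 24910433 to 32337966 in Esrp1-KO. Esrp1 itself stood at 17.5 ± 1.42 FPKM in WT and 3.30 ± 0.68 in Esrp1-KO (SD, n = 4 each), or 18.8% of WT, with no overlap of the groups. All 12 oocyte markers were present, the lowest with a mean of 45.8 FPKM. Markers of other ovarian cells were low. The 10 measured granulosa and cumulus markers summed to 6.61 to 8.25 FPKM in WT and 2.40 to 3.32 in Esrp1-KO. Only Cyp19a1 had a mean of 1 FPKM or more, with Fshr, Foxl2, Inhba, Inhbb and Ptx3 below 0.1 everywhere. The 7 theca and stroma markers summed to 0.226 to 1.14 in WT and 2.16 to 2.52 in Esrp1-KO, with Dcn alone reaching that mean. The 8 immune markers reached 1.63 in WT and 9.17 in Esrp1-KO, and the 4 red cell markers 0.449 and 0.134. The part of these transcripts in the results below was not tested.

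Smart-seq2 primes cDNA on poly(A) tails, so the 3′ ends of the mRNAs are shown first, for 4 of the members whose level or ratio is described in detail. Each line gives 30 bases around the polyadenylation hexamer of 1 coding transcript per gene (GENCODE M21, GRCm38), 5′ to 3′. Capitals mark the hexamer (AATAAA or ATTAAA) and the cytoplasmic polyadenylation element (TTTTAT or TTTTAAT, read on the mRNA strand only), a site through which stored oocyte mRNAs gain tails during maturation.
Cdc20: TTTTATTTTATtttttctAATAAAgttcgt
Anapc10: agattatctcaggaagtgAATAAAtaacat
Espl1: tttctttaatgtgaccttAATAAAgatatt
Pttg1: ctgtatgtatgttgtattAATAAAgcattt

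Cdc20 was the only one of the 10 members with such elements in the last 100 bases of this transcript. It has 2, which share a base and begin 40 and 35 bases before the end. Of 6923 coding genes tested, 22.8% have at least 1 in the same window. A hexamer was present in this window of every member but Fzr1, and in 81.6% of those genes. These are matches of letters. Tail lengths were not measured, and no match says only that these letters are not in this window of this transcript.

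The bases upstream of the transcription start are shown for the co-activators, whose ratio is described further on, and for Espl1, which shares an element with Cdc20. Each line gives the 120 bases before the start, 5′ to 3′ in the direction of the gene (RefSeq, GRCm38.p6). Capitals mark TTTGAA or TTCGAA, the cell cycle genes homology region (CHR) found in many genes expressed before mitosis, and the CCAAT box, each searched on both strands. The starts are those of RefSeq, and GENCODE M21 begins these genes further upstream. Fzr1 begins there at 81378516, so its whole window lies inside the M21 gene. Espl1 begins there at 102296266, the first base of its marked TTTGAA. Cdc20 begins there at 118437352, so its last CCAAT lies inside the M21 gene.
Cdc20 (chr4:118437344-118437463, minus strand): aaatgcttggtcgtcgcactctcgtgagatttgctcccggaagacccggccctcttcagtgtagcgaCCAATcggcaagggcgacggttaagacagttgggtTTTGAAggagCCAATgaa
Fzr1 (chr10:81378371-81378490, minus strand): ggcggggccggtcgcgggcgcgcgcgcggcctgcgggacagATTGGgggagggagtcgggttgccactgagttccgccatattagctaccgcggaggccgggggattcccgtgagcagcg
Espl1 (chr15:102296173-102296292, plus strand): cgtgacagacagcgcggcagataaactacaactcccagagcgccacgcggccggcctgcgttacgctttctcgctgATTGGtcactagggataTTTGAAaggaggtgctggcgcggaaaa

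A promoter was matched for 9 members, all but Cdc23. A CHR match was present in 2 of the 9, Cdc20 (18 bases before the RefSeq start) and Espl1 (27 bases before it), and in 7.6% of 32851 promoters. A CCAAT match was present in 5 of the 9 (Cdc20, Fzr1, Espl1, Cdc27 and Anapc10) and in 21.3% of promoters. Members were counted by gene if any entry matched, while the percentages are per promoter. For Anapc10 the match was in the entry at chr8:79711729-79711848 and not in its other entry. For that other entry and for Cdc16, the bases just after the start were not found in a transcript of the gene. The NOBOX-type letters TAATTG or TAATTA, searched on both strands, occurred in none of the 9 and in 5.1% of promoters.

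Among the 10 members, 9 averaged 1 FPKM or more across libraries and were tested, and Cdc23 lay under that filter. Of the 9, Fzr1 and Anapc4 rose in Esrp1-KO eggs, Anapc10 fell, and 6 did not pass an adjusted p of 0.05 (limma, adjusted over 8021 genes). Over all genes tested 36.9% passed, with 13.9% higher and 23.1% lower, so 3 of 9 is near the share of the transcriptome. Of the genes that passed, 62.5% were lower with FPKM as deposited and 68.5% when scaled to a common total of nuclear genes. The share was 47.2% with TMM scaling, 48.5% with median-ratio scaling and 51.1% with quantile normalization. The median log2 fold change was −0.06 over all genes (0.06 under TMM, −0.12 with the nuclear total) and 0.05 over the 9 members. The same 3 members were also those whose 4 values in 1 genotype all lay on one side of the 4 in the other, as did 36.8% of all genes tested.

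**Figure D1:**
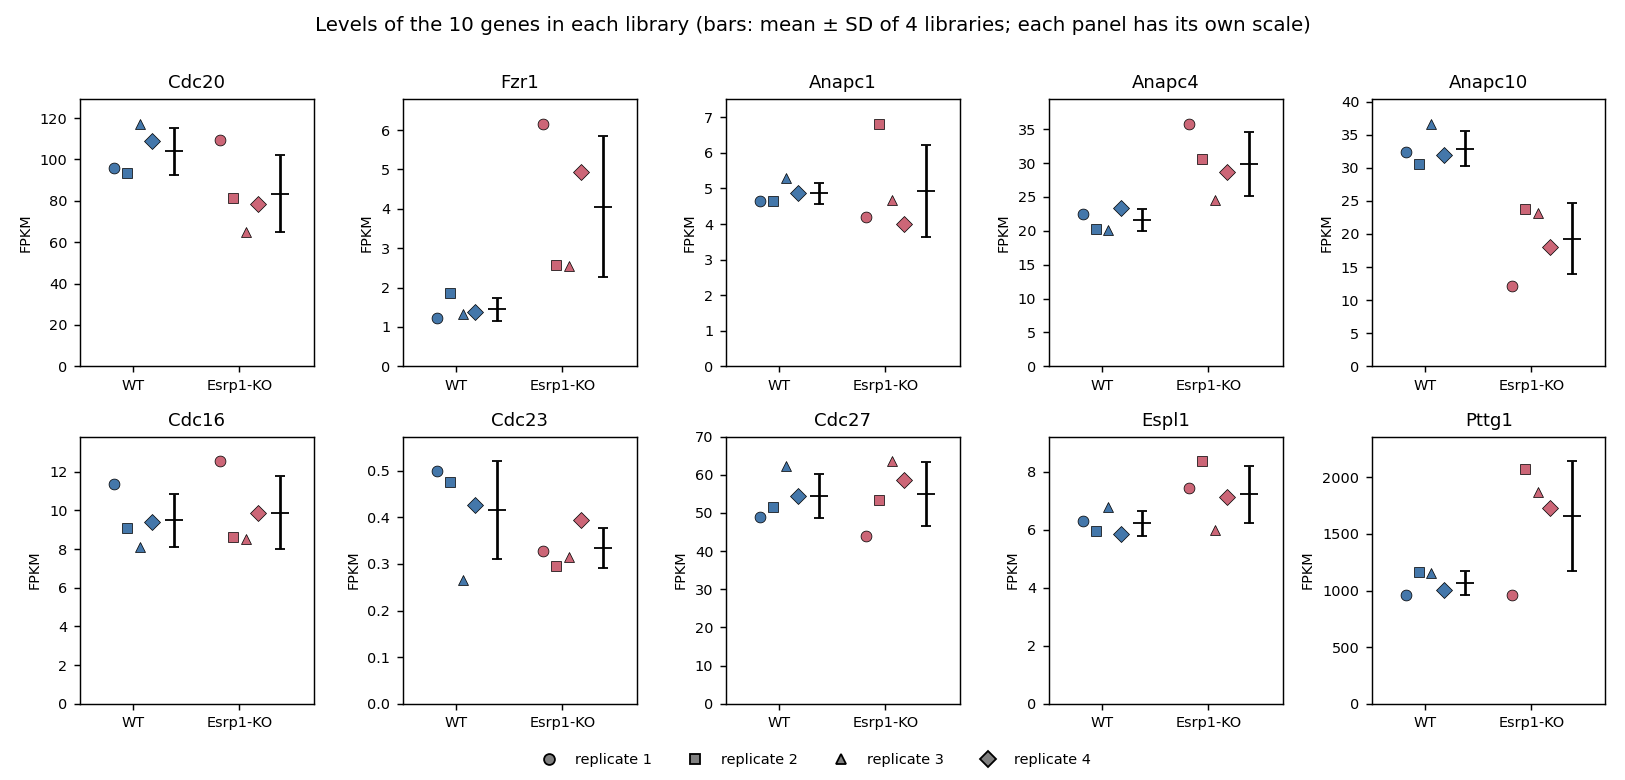
FPKM of each of the 10 genes in every library, with WT in blue, Esrp1-KO in red, the symbol showing the replicate number and bars giving the mean ± SD of 4 libraries. Fzr1 and Anapc4 lie higher and Anapc10 lower in all 4 Esrp1-KO libraries than in any WT library, and Pttg1 is above all WT libraries in 3 of 4.

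In WT eggs the members spanned a wide range of levels per length. Securin stood far above the rest. Pttg1 had 1069.7 ± 105.5 FPKM and ranked 45 among the 8021 genes tested by WT mean. It was followed by Cdc20 (103.8 ± 11.2), Cdc27 (54.3 ± 5.78), Anapc10 (32.9 ± 2.66), Anapc4 (21.5 ± 1.62), Cdc16 (9.49 ± 1.38), Espl1 (6.23 ± 0.42), Anapc1 (4.86 ± 0.30), Fzr1 (1.45 ± 0.29) and Cdc23 (0.416 ± 0.11; all SD, n = 4). The ranges of neighbours in this order did not overlap between the WT libraries. The closest were Espl1, with a lowest value of 5.84, and Anapc1, with a highest of 5.28. The deposited FPKM use the summed exons of all annotated transcripts for most genes, which lowers genes with long alternative exons. Per length of the single coding transcript, Anapc1 had 9.09 RPKM (reads scaled in the same way) and Espl1 6.20, so that pair changes places, and no other pair does.

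Of the co-activators, Fzr1 rose and Cdc20 did not pass. Fzr1 (ENSMUSG00000020235, chromosome 10, 81366222 to 81378516, minus strand) had 1.22, 1.87, 1.32 and 1.37 FPKM in WT replicates 1 to 4 and 6.17, 2.57, 2.55 and 4.94 in Esrp1-KO replicates 1 to 4. Every Esrp1-KO library was above every WT library, and Esrp1-KO replicates 1 and 4 were the highest. The mean rose 2.80-fold (log2 fold change 0.98 ± 0.24, SE, adjusted p = 0.00919, limma). The gene was held by 145 to 210 reads in WT and 287 to 895 in Esrp1-KO, and passed the filter in WT libraries as well. With replicates 1 and 4 alone the log2 fold change was 1.51 (adjusted p = 0.00793, limma). With replicates 2 and 3 alone it was 0.46 and did not pass (adjusted p = 0.155, limma). The difference between these values was not tested.

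Cdc20 (ENSMUSG00000006398, chromosome 4, 118432901 to 118437352, minus strand) had 95.8, 93.5, 117.4 and 108.7 FPKM in WT and 109.2, 81.4, 65.02 and 78.3 in Esrp1-KO. In Esrp1-KO, replicates 2, 3 and 4 were below every WT library, and replicate 1 was within the WT range. The mean was 0.804 of WT and the call was not made (log2 fold change −0.33 ± 0.16, SE, 95% interval −0.70 to 0.04, adjusted p = 0.143, limma). Without Esrp1-KO replicate 1 it was (−0.47, adjusted p = 0.0247, limma). Of its 50-base stretches, 10.6% also occur in transcripts of other genes.

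The ratio of Cdc20 to Fzr1 showed the contrast within each library, free of scaling. It was 78.2, 49.97, 88.8 and 79.3 in WT and 17.7, 31.7, 25.5 and 15.9 in Esrp1-KO. The groups did not overlap, with means of 74.1 ± 16.8 and 22.7 ± 7.32 (SD, n = 4 each). The groups of Fzr1 alone already did not overlap, so the ratio largely restates the Fzr1 values, and it was not tested. Cdc20 transcripts were still many times more abundant than those of Fzr1 in each Esrp1-KO library.

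**Figure D2:**
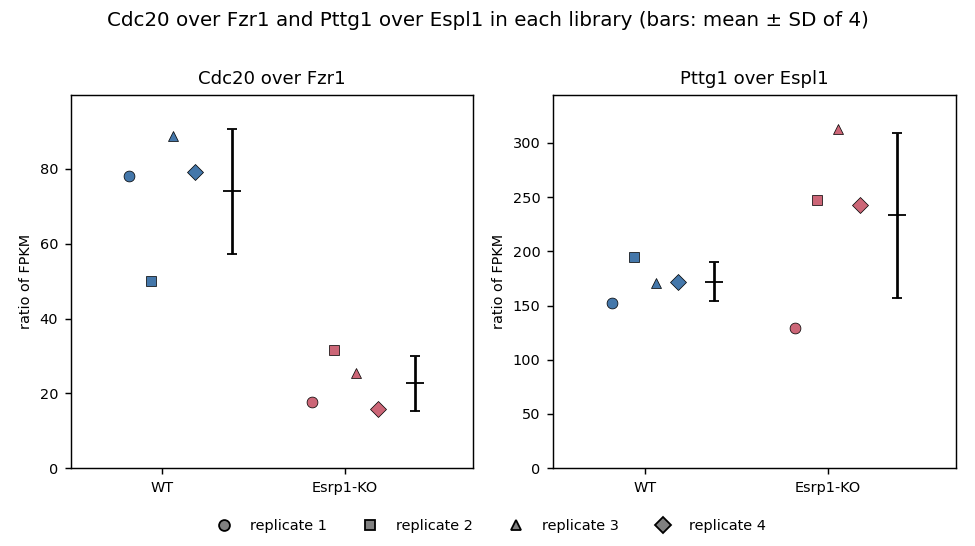
Ratio of FPKM of Cdc20 to Fzr1 (left) and of Pttg1 to Espl1 (right) in each library, with WT in blue, Esrp1-KO in red and bars for the mean ± SD of 4. The Cdc20 to Fzr1 ratio is at least 49.97 in WT and at most 31.7 in Esrp1-KO, while the Pttg1 to Espl1 ratio overlaps between the groups.

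Among the subunits, the one that helps hold substrates fell. Anapc10 (ENSMUSG00000036977, chromosome 8, 79711820 to 79779059, plus strand), which forms the receptor for destruction boxes together with the co-activator, had 32.3, 30.6, 36.7 and 31.9 FPKM in WT. In Esrp1-KO it had 12.2, 23.8, 23.2 and 18.04. All 4 were below the lowest WT library, with replicate 1 the lowest. The mean was 0.588 of WT (log2 fold change −0.78 ± 0.20, SE, adjusted p = 0.0120, limma), from 3700 to 4997 reads in WT and 1909 to 3217 in Esrp1-KO. The log2 fold change was −1.06 with replicates 1 and 4 alone (adjusted p = 0.0232, limma) and −0.49 with replicates 2 and 3 alone, which did not pass (adjusted p = 0.0984, limma).

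The platform subunit Anapc4 (ENSMUSG00000029176, chromosome 5, 52834012 to 52867797, plus strand), part of the scaffold that joins the catalytic module to the rest, had 22.5, 20.2, 20.1 and 23.3 FPKM in WT. It had 35.8, 30.6, 24.6 and 28.6 in Esrp1-KO, all above the WT range. The mean rose 1.39-fold (log2 fold change 0.45 ± 0.14, SE, adjusted p = 0.0278, limma). This call is close to the threshold. It was lost without WT replicate 1, 2 or 3 and without Esrp1-KO replicate 1, 2 or 4, with adjusted p values of 0.0509 to 0.0719 (limma) and log2 fold changes of 0.36 to 0.47. It was also lost with either pair of replicates alone (0.47, adjusted p = 0.0916, and 0.42, adjusted p = 0.151). The largest subunit, Anapc1, another platform protein, had 4.65 to 5.28 FPKM in WT and 3.99 to 6.83 in Esrp1-KO, a log2 fold change of −0.01 with a 95% interval of −0.35 to 0.34 (adjusted p = 0.977, limma).

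The subunits with tetratricopeptide repeats form the arched lobe to which the co-activators bind, and none of those tested passed. Cdc27, which takes up the C-terminal tail of the co-activator, had 48.9 to 62.3 FPKM in WT and 43.9 to 63.6 in Esrp1-KO, from at least 8057 reads in each library. Its log2 fold change was 0.01 with a 95% interval of −0.31 to 0.33 (adjusted p = 0.972, limma). Cdc16 had 8.09 to 11.4 FPKM in WT and 8.51 to 12.6 in Esrp1-KO, with an interval of −0.30 to 0.39 (adjusted p = 0.838, limma). As fold changes of FPKM + 1 the intervals run from 0.783 to 1.27 for Anapc1, 0.806 to 1.25 for Cdc27 and 0.814 to 1.31 for Cdc16. Cdc23 was listed at 0.266 to 0.499 FPKM in WT and 0.296 to 0.395 in Esrp1-KO. That is 70 to 125 reads per library over the annotated exons, of which 13.4% overlap exons of Kif20a on the other strand, and strand was not marked.

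Separase and securin both stood higher on average in Esrp1-KO, and neither passed. Pttg1 (ENSMUSG00000020415, chromosome 11, 43420250 to 43426251, minus strand) had 958, 1163, 1157 and 1001 FPKM in WT and 964, 2075, 1875 and 1728 in Esrp1-KO. Replicates 2, 3 and 4 of Esrp1-KO were above every WT library, and replicate 1 was next to the lowest of the WT libraries. The mean was 1.55 times that of WT (log2 fold change 0.58 ± 0.22, SE, 95% interval 0.09 to 1.07, adjusted p = 0.0637, limma). With the replicate number as a block the same difference passed (adjusted p = 0.0190, limma). It also passed without Esrp1-KO replicate 1 (0.82, adjusted p = 0.00120), with TMM scaling (0.73, adjusted p = 0.0267) and with replicates 2 and 3 alone (0.77, adjusted p = 0.0219, limma), but not with replicates 1 and 4 alone (0.40, adjusted p = 0.336).

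Espl1 (ENSMUSG00000058290, chromosome 15, 102296266 to 102324357, plus strand) had 6.31, 5.97, 6.79 and 5.84 FPKM in WT and 7.44, 8.38, 5.98 and 7.12 in Esrp1-KO. In Esrp1-KO, 3 of the 4 libraries were above the WT range and replicate 3 was inside it. The mean was 1.16 times that of WT (log2 fold change 0.18 ± 0.13, SE, 95% interval −0.10 to 0.46, adjusted p = 0.285, limma). The ratio of Pttg1 to Espl1 was 152, 195, 170.4 and 171 in WT and 129.5, 248, 313 and 243 in Esrp1-KO. Its groups overlapped through Esrp1-KO replicate 1, which was the lowest of all 8. Per length, securin transcripts thus exceeded those of separase by a wide margin in every library.

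**Figure D3:**
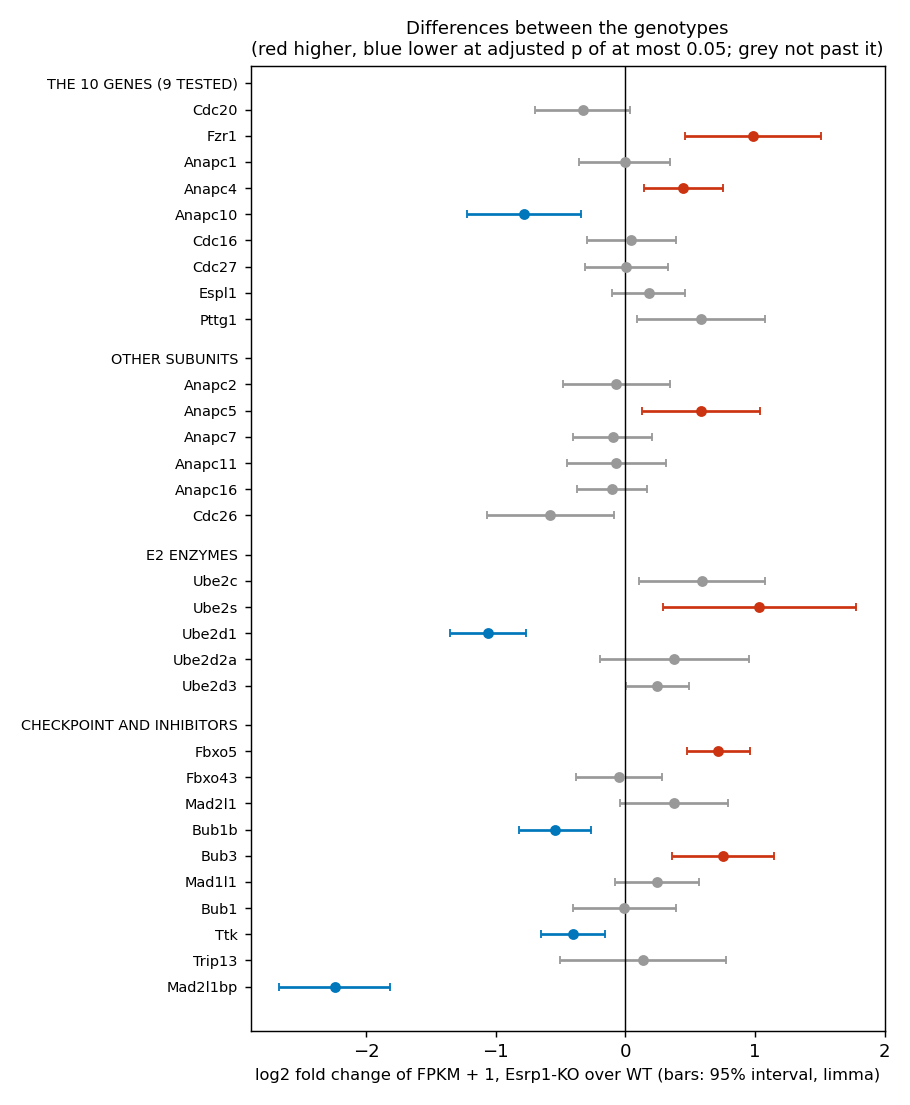
Log2 fold change of FPKM + 1 between Esrp1-KO and WT with the 95% interval from limma, for the 9 members tested and for the other subunits, E2 enzymes and checkpoint genes. Red genes passed as higher and blue ones as lower at an adjusted p of 0.05. Fzr1 (0.98), Anapc4 (0.45) and Anapc10 (−0.78) are the members that passed, and the intervals of Anapc1, Cdc16 and Cdc27 centre near 0.

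Esrp1-KO replicate 1 was the library farthest from WT for Fzr1, Anapc4 and Anapc10 and the closest to WT for Pttg1. Differences of same-numbered libraries on the log2 scale kept 1 direction in all 4 numbers for Fzr1 (0.31 to 1.69), Anapc4 (0.28 to 0.65), Anapc10 (−1.34 to −0.35) and Pttg1 (0.01 to 0.84). For the other members they went both ways, as for Cdc20 (−0.84 to 0.19) and Anapc1 (−0.23 to 0.47).

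The remaining subunits of the complex gave 1 higher and none lower of 6 tested (36.9% of all genes passed), with Anapc13 and Anapc15 under the filter. Scaled to a common nuclear total, the list gave none higher and 1 lower. Anapc5, a platform subunit beside Anapc4, had 3.20, 2.64, 2.08 and 2.75 FPKM in WT and 6.88, 4.22, 2.96 and 4.44 in Esrp1-KO. The groups overlapped, and the difference passed narrowly (log2 fold change 0.58 ± 0.20, SE, adjusted p = 0.0468, limma). It was lost in 12 of 21 alternatives, among them the omission of any library but Esrp1-KO replicate 3 (adjusted p = 0.0563 to 0.119). Cdc26, a small partner of Cdc16, had 8.68 ± 1.60 FPKM in WT and 5.62 ± 1.91 in Esrp1-KO and missed the threshold (adjusted p = 0.0624, limma). With the replicate block it passed (adjusted p = 0.00871). The list had 2 genes past the threshold with that block.

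The E2 enzymes, which hand ubiquitin to the complex, gave 1 higher and 1 lower of 5, near the 36.9% of all genes that passed. Ube2s, which lengthens ubiquitin chains, had 20.3, 27.8, 54.7 and 68.5 FPKM in WT and 94.6, 75.6, 73.02 and 75.7 in Esrp1-KO. The WT libraries were widely spread, all below the lowest Esrp1-KO library (log2 fold change 1.03 ± 0.33, SE, adjusted p = 0.0351, limma). The call was lost without WT replicate 1 or 2 or any Esrp1-KO library (adjusted p = 0.0602 to 0.0892). Ube2d1 fell from 2.71 ± 0.35 to 0.782 ± 0.18 FPKM (log2 fold change −1.06, adjusted p = 0.000288, limma), and passed the filter only through its WT values. Ube2c, which starts the chains, had 29.5 ± 6.01 FPKM in WT and 45.5 ± 12.7 in Esrp1-KO and missed the threshold (adjusted p = 0.0568, limma), with 22.8% of its exons under Tnnc2 on the other strand. With TMM, median-ratio or quantile scaling 4 of these 5 genes passed, 3 higher and 1 lower.

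Checkpoint genes and inhibitors of the complex gave 2 higher and 3 lower of 10, with a median log2 fold change of 0.06, where 36.9% of all genes tested passed. TMM scaling gave 2 higher and 2 lower, without Ttk. The inhibitor Fbxo5 (Emi1) rose from 96.5 ± 9.04 to 159 ± 2.92 FPKM (adjusted p = 0.000853, limma). Its paralog Fbxo43 (Emi2), which maintains MII arrest, had 88.8 ± 8.19 FPKM in WT and 86.6 ± 15.8 in Esrp1-KO (95% interval of the log2 fold change −0.38 to 0.28, adjusted p = 0.823, limma). Components of the mitotic checkpoint complex, which binds Cdc20, went both ways. Bub1b fell from 254.8 ± 24.6 to 175 ± 19.4 FPKM, and Bub3 rose from 4.61 ± 0.70 to 8.58 ± 2.14. The checkpoint kinase gene Ttk fell from 22.7 ± 1.19 to 16.9 ± 1.29, a call lost without WT replicate 4 (adjusted p = 0.0522, limma) and with TMM scaling (adjusted p = 0.120). Mad2l1bp, whose protein helps take the checkpoint complex apart, had the largest fall of the list (log2 fold change −2.24, adjusted p = 3.53e-05, limma). Mad2l1, which holds Cdc20 in that complex, had 52.7 ± 7.66 FPKM in WT and 69.7 ± 16.2 in Esrp1-KO and missed the threshold (adjusted p = 0.140). With the replicate block it passed (adjusted p = 0.0381, limma), for 6 genes of this list.

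Genes for proteins destroyed through the complex gave 3 higher and 5 lower of 21 tested, with a median log2 fold change of 0.01, beside 36.9% of all genes (13.9% higher, 23.1% lower). TMM scaling gave 6 higher and 5 lower, the 3 added being Ccnb2, Ccna2 and Aurka. The replicate block also added these 3, for 11 in all. Geminin (Gmnn), which blocks DNA replication licensing, fell from 77.5 ± 10.5 to 25.2 ± 7.27 FPKM. The ubiquitin ligase subunit Skp2 fell from 3.71 ± 0.66 to 1.27 ± 0.39, and the chromosome-bound kinesin Kif22 from 28.9 ± 1.41 to 20.3 ± 0.95. The cyclins Ccnb1 and Ccnb3 also fell, each by −1.03 on the log2 scale (adjusted p = 0.000384 and 0.000460, limma), and 23.4% of the 50-base stretches of Ccnb1 occur in other genes. Ribonucleotide reductase subunit Rrm2 rose from 9.74 ± 0.64 to 18.5 ± 3.41 FPKM, and Aurkb and Tpx2 rose with log2 fold changes of 1.28 and 0.47. These 8 of 21 genes had groups that did not overlap, as had 36.8% of all genes tested. Of the main substrates at anaphase, Ccnb1 passed as lower and Pttg1 did not pass.

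Cohesin genes and their regulators, on which separase acts or which set its access, gave 1 higher and 5 lower of 18 tested (median log2 fold change −0.17), with Stag3 and Pds5a under the filter, beside 36.9% of all genes called (23.1% lower). TMM scaling gave 3 higher and 4 lower, adding Rad21l and Smc1a as higher and losing Esco2. Scaled to a common nuclear total, the list gave 0 higher and 5 lower. The cohesin subunit Stag2 fell from 7.13 ± 0.71 to 3.80 ± 1.25 FPKM and Stag1, which passed the filter only through its WT values, from 1.92 ± 0.32 to 0.775 ± 0.068. The acetyltransferase Esco1, which locks cohesin on chromosomes, fell from 77.1 ± 11.1 to 39.9 ± 10.5. The related Esco2 fell from 78.02 ± 2.21 to 61.4 ± 5.37, a call lost with TMM scaling (−0.20, adjusted p = 0.188) and without any of 6 libraries, all but Esrp1-KO replicates 2 and 4 (adjusted p = 0.0532 to 0.0814). The shugoshin Sgo2a, which shields cohesin from separase, fell from 6.57 ± 0.17 to 3.46 ± 0.40 FPKM (adjusted p = 0.000742, limma), and 35.04% of its exons overlap exons of Kctd18 on the other strand. Ppp2ca, the phosphatase catalytic subunit that works with shugoshin, had 3.87 ± 1.82 FPKM in WT and 6.60 ± 0.96 in Esrp1-KO and passed narrowly (adjusted p = 0.0470, limma), with 41.3% of its exons under a gene on the other strand. That call was lost in 12 of 22 alternatives, among them the omission of any library but WT replicate 4 and Esrp1-KO replicate 2 (adjusted p = 0.0838 to 0.1002). The cohesin core subunits Smc3 and Rad21 did not pass (adjusted p = 0.641 and 0.402, limma). Rec8, also on the list, is not analysed here, so these values do not cover it. With the replicate block 7 genes of this list passed.

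**Figure D4:**
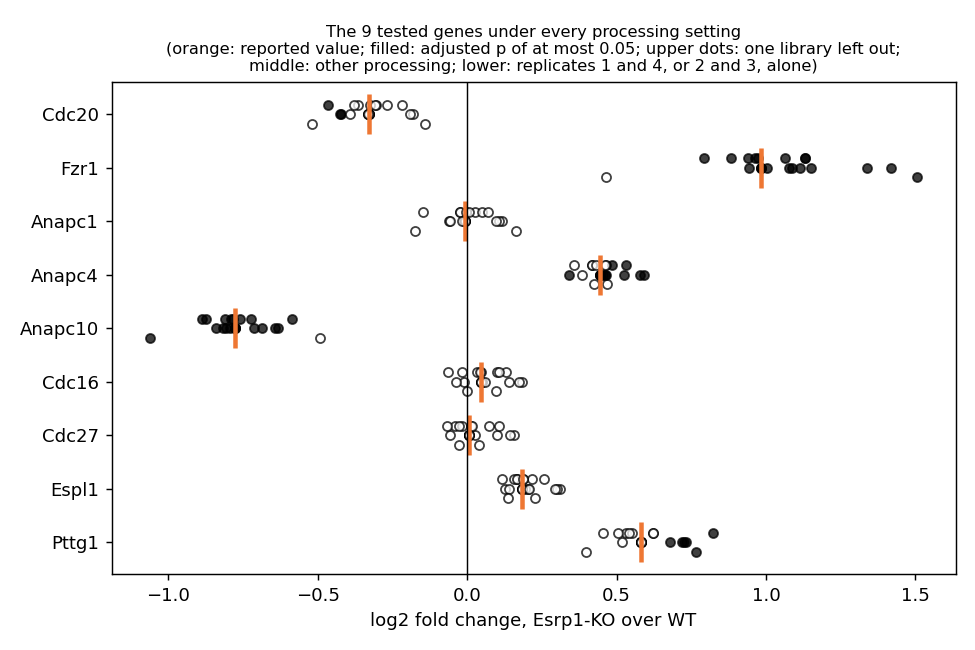
Log2 fold change of the 9 tested members under each of 22 alternative settings, with the reported value as an orange bar and filled dots where the adjusted p was at most 0.05. Fzr1 and Anapc10 stay on 1 side of 0 and lose the call with replicates 2 and 3 alone, Fzr1 at 0.46 and Anapc10 at −0.49, while Pttg1 passes in 7 of 22 settings and Cdc20 in 3.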

How the data were processed

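RNA was measured in 8 Smart-seq2 libraries, 4 per genotype, per the labels' protocols. The authors deposited FPKM per gene, per the file headers, on GRCm38 per the submitters' processing notes. The aligner, counter and annotation: not given in the sources used here. Of 24860 Ensembl genes, 24812 had a symbol in GENCODE M21. FPKM times exon length fell on whole multiples of 1 step per library (tolerance 0.02 of a read) for 89.9% to 90.5% of values above 0. With a search over lengths where the M21 length gave none, reads were recovered for 24784 genes. PCR copies carry no identifier, so reads are not independent molecules. The 95% intervals come from the limma fit and reflect variation between libraries.

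The 8021 genes averaging 1 FPKM or more were compared by limma 3.58.1 (R 4.3.3) after log2(FPKM + 1), fitting genotype alone with a mean-variance trend. Tests were two-sided, and p-values were Benjamini-Hochberg adjusted across those genes, with calls at 0.05. Fold changes on this scale understate low genes. The steps were tested on simulated data of 7989 genes. Of 70 genes changed 1.5-fold 40% were recovered, of 68 changed 2-fold 70.6%, and of 62 changed 4-fold 96.8%. Of the 147 calls, 11 were false. These figures describe the simulated data only. Whether they hold for the 8 libraries, where 36.9% of the 8021 genes passed, was not tested. Alternatives were other pseudocounts, filters and scalings, sample weights, no trend, a replicate block, each library left out, replicates 1 and 4 or 2 and 3 alone, and voom on recovered reads. Same-numbered libraries, by the labels' numbers, deviated together (correlations of deviations over genes 0.226 to 0.317), so blocked values are given where a call changes. Libraries of different numbers also did so. WT replicate 4 with Esrp1-KO replicate 1 reached 0.402, and WT replicate 3 with Esrp1-KO replicate 2 reached 0.252. WT replicate 1 with Esrp1-KO replicate 4 stood at only 0.017. Between replicates 1 or 4 of a genotype and 2 or 3 of the other, all correlations were negative (−0.407 to −0.126). Deviations were taken from the mean of each genotype, so some correlations must be negative where others are positive. The split of 1 and 4 from 2 and 3 thus cuts across the numbers, and a block by that split was not run.

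Members and lists were chosen with earlier results of these data known. Text names all members, Esrp1 and each list gene past the threshold. Cdc26, Ube2c, Fbxo43, Mad2l1, Ccnb2, Ccna2, Aurka, Smc3, Rad21, Rad21l, Smc1a and Ppp2r1a, and the marker genes, were named after their values were seen. For the 10 members and the listed genes, 50-base stretches and exons shared with other M21 genes were computed, and large shares are given beside the gene. Rec8 is not analysed here. The 3′ end sequences of the members not shown are not reported here.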

Additional observations from a re-analysis of the deposited data

Results flagged for a closer look

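In 70 groups of 4 libraries, 1 library stood apart from the other 3 in 4 cases by Dixon's ratio, where chance gives about 1 in 20. None concerned a member. Ube2s was highest in Esrp1-KO replicate 1 with 94.6 FPKM, against 73.02 to 75.7 in the others. Bub3 was highest in WT replicate 2 with 5.66 FPKM, against 4.21 to 4.36. Ttk was lowest in Esrp1-KO replicate 2 with 14.99987 FPKM, against 17.4 to 17.8. Rrm2 was highest in WT replicate 3 with 10.7 FPKM, against 9.36 to 9.51.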

How the results depend on the processing

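The directions of Fzr1, Anapc4, Anapc10, Pttg1, Cdc20 and Espl1 were the same in all alternatives run (21 for Fzr1, 22 for the others). The call held in 20 of 21 for Fzr1, 21 of 22 for Anapc10 and 12 of 22 for Anapc4. Differences near 0 changed sign. Anapc1 went to 0.12 with TMM, 0.11 with median-ratio and 0.10 with quantile scaling and 0.16 with replicates 2 and 3 alone (−0.148 to 0.068 with 1 library left out). Cdc16 went to −0.011 with a common nuclear total, −0.038 with quality weights and −0.002 with replicates 2 and 3 alone (−0.064 to 0.13 with 1 left out). Cdc27 went to −0.056 with the nuclear total and −0.026 with replicates 1 and 4 alone (−0.067 to 0.108 with 1 left out). Members past the threshold were 4 with the replicate block, 5 with quantile scaling (2 lower) and 5 with quality weights (2 lower). Replicates 2 and 3 alone gave 1, Pttg1, with 1 higher and 0 lower. Only 1 was higher with no filter, a mean of at least 5 FPKM, which removes Fzr1, the nuclear total and replicates 1 and 4 alone. With 1 library left out 2 to 4 passed, 1 to 2 higher and 1 to 2 lower. Over all genes, 1664 passed at a mean of at least 5 FPKM (668 higher, 996 lower), from fewer genes tested. Replicates 2 and 3 alone, with fewer samples, gave 1489 (584 higher, 905 lower), and replicates 1 and 4 alone gave 676 higher. Other subunits past the threshold were 2 with the replicate block or voom, and 0 with no filter, a mean of at least 5 FPKM, quality weights or replicates 2 and 3 alone (0 to 1 with 1 library left out). E2 enzymes were 4 with TMM, median-ratio or quantile scaling, and 1 with no filter, a mean of at least 5 FPKM or either pair of replicates (1 to 2 with 1 left out). Checkpoint genes were 3 with either pair of replicates and cohesin genes 2 with replicates 2 and 3 alone. Of the listed genes, Kif22, Anapc5, Ube2s, Ttk, Esco2 and Ppp2ca lost the call with either pair of replicates. Bub3 lost it with replicates 1 and 4, and Bub1b, Tpx2, Stag1 and Stag2 with replicates 2 and 3. The replicate block changed no call but those of Pttg1, Cdc26, Mad2l1, Ccnb2, Ccna2, Aurka and Ppp2r1a among the genes tested here by name or list. Where no construction is named, the cause was not tested. Fzr1 rests on few reads in WT, and its log2 fold change went from 0.98 at a pseudocount of 1 to 1.34 at 0.1.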
